A study of Arabidopsis thaliana with 9 samples.

Results

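The 10 genes described here are the auxin synthesis genes *YUC1* (AT4G32540), *YUC2* (AT4G13260), *YUC3* (AT1G04610), *YUC4* (AT5G11320), *YUC5* (AT5G43890), *YUC6* (AT5G25620), *YUC8* (AT4G28720), *YUC9* (AT1G04180), *TAA1* (AT1G70560) and *TAR2* (AT4G24670). They were chosen by name and locus identifier and are 10 of the 33602 loci with a value in every library. mRNA was sequenced from whole seedlings of *bbx11-1*, *pif4-2* and the wild type Col-0, all in the Col-0 background, grown for 4 d in constant red light of 94 μmol/m2/s on medium with sucrose. *bbx11-1* is a mutant of the B-box transcription factor gene *BBX11*, and *pif4-2* is a mutant of *PIF4*, which encodes a basic helix-loop-helix factor that binds the red light photoreceptor phyB. Each of the 3 genotypes had 3 libraries, and each mutant genotype was 1 allele. The values are in FPKM, in which the sequenced fragments of a gene are scaled to the length of its transcript and to the total of the library.

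Auxin (indole-3-acetic acid, IAA) is made from tryptophan in a pair of steps. The aminotransferase TAA1 and its relatives, the TAR enzymes, convert tryptophan to indole-3-pyruvic acid, and the flavin monooxygenases of the YUCCA (YUC) family convert that intermediate to IAA. In seedlings this route supplies auxin for hypocotyl and cotyledon growth, and PIF4 is known from Arabidopsis to bind the promoters of some *YUC* genes, *YUC8* among them.

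All 10 genes were weakly to moderately expressed in every genotype. No member passed the test in any of the 3 comparisons of genotypes. The test was limma with Benjamini-Hochberg adjustment over 19169 genes, and a gene was called where its adjusted p was below 0.05 and the genotypes differed 2-fold or more. Against Col-0, every *pif4-2* library was lower for *YUC2*, *YUC8* and *TAA1* and higher for *YUC5*, and 22.3% of all tested genes did not overlap in this comparison. For *YUC2*, *YUC4*, *YUC9* and *TAA1* the *bbx11-1* libraries all lay below the lowest Col-0 library, and 12.6% of all tested genes did not overlap there.

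The depth inferred from the spacing of the low values was 17.3 to 19.5 M reads in *bbx11-1* libraries, 18.7 to 22.2 M in *pif4-2* libraries and 16.2 to 17.8 M in Col-0 libraries. *BBX11* stood at 7.66 to 10.72 FPKM in *bbx11-1*, against 15.72, 16.37 and 78.24 FPKM in Col-0, where replicate 3 stood apart. *PIF4* stood at 16.25 to 17.51 FPKM in *pif4-2*, against 25.72 to 35.23 FPKM in Col-0, so that its mRNA was still measured in the mutant. Replicate 1 of *bbx11-1* and replicate 1 of Col-0 stood apart from the other libraries of their genotypes on both leading principal components. No 2 libraries held identical values. Markers of green tissue, root, shoot apex, stomatal lineage and seed storage proteins were all measured, and none was at 0 in every library. In such whole seedlings, fewer cells of a type and less RNA per cell cannot be told apart.

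**Figure D1:**
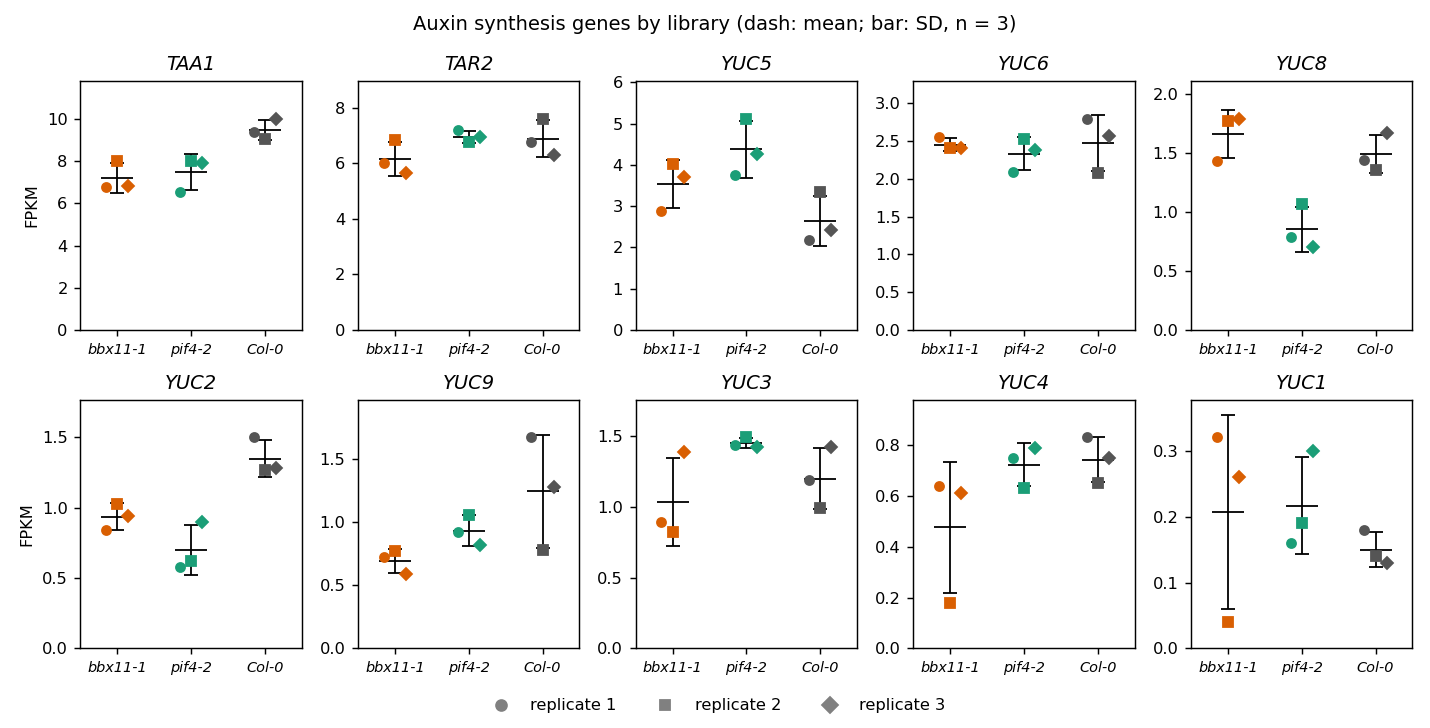
FPKM of each of the 10 auxin synthesis genes (y axis, starting at 0 and scaled per gene) in *bbx11-1*, *pif4-2* and Col-0 (x axis). Each symbol is 1 library, the dash is the mean and the bar the SD (n = 3). The *pif4-2* libraries of *YUC8* lie between 0.70 and 1.07 FPKM, below all 6 other libraries, and the Col-0 libraries of *TAA1* lie between 9.07 and 10.01 FPKM, above all libraries of both mutants.

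*TAA1* had the highest mean of the 10 genes in each genotype. *TAA1* lies on chromosome 1 (26604855 to 26607652, plus strand, 5 exons in TAIR10.1) and encodes the aminotransferase of the first step. It stood at 6.79, 8.01 and 6.82 FPKM in *bbx11-1* and at 6.53, 8.03 and 7.93 FPKM in *pif4-2*, against 9.38, 9.07 and 10.01 FPKM in Col-0. Every library of both mutants was below every Col-0 library, while the mutants overlapped each other. The means were 7.21 ± 0.696 FPKM in *bbx11-1*, 7.50 ± 0.839 FPKM in *pif4-2* and 9.49 ± 0.479 FPKM in Col-0 (SD, n = 3 each), so that *TAA1* stood at 76.0% of the Col-0 mean in *bbx11-1* and at 79.0% in *pif4-2*. On the scale of log2(FPKM + 0.5), on which all differences below are given, the difference from Col-0 was -0.38 ± 0.11 in *bbx11-1* (SE, 95% interval -0.61 to -0.14, limma adjusted p = 0.195). In *pif4-2* it was -0.33 ± 0.11 (SE, 95% interval -0.56 to -0.09, limma adjusted p = 0.128). Neither passed, and both comparisons use the same Col-0 libraries.

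*TAR2* encodes an aminotransferase related to TAA1 and lies on chromosome 4 (12727531 to 12731331, minus strand). It lay between 5.64 and 6.83 FPKM in *bbx11-1* and between 6.76 and 7.19 FPKM in *pif4-2*, against 6.30 to 7.60 FPKM in Col-0, and the mutant libraries overlapped those of Col-0. Its difference from Col-0 was -0.15 ± 0.10 in *bbx11-1* (95% interval -0.37 to 0.08) and 0.02 ± 0.10 in *pif4-2* (95% interval -0.21 to 0.24). Between same-numbered libraries of *bbx11-1* and Col-0, whose deviations correlate, *TAR2* differed by -0.74, -0.77 and -0.66 FPKM (*bbx11-1* minus Col-0) in the 3 pairs. Its limma adjusted p was 0.556 in the blocked fit, which has the replicate number as a term. In all 3 pairs 6 members were below Col-0 (*YUC2*, *YUC3*, *YUC4*, *YUC9*, *TAA1* and *TAR2*) and 1 was above (*YUC5*). *TAA1* differed by -2.59, -1.06 and -3.19 FPKM, with a limma adjusted p of 0.126 in the blocked fit. The share of all genes with 3 differences of like sign is not given here. The sum of *TAA1* and *TAR2* was 13.4 ± 1.28 FPKM in *bbx11-1* and 14.5 ± 0.645 FPKM in *pif4-2*, against 16.4 ± 0.266 FPKM in Col-0. The sums of the mutants reached at most 14.9 FPKM, and those of Col-0 were at least 16.1 FPKM.

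*YUC8* is a single-exon gene on chromosome 4 (14192569 to 14194302, plus strand). It was also measured by RT-qPCR in the study, and the RT-qPCR primers are shown because they mark the stretch of the transcript that this other assay reads. They are 24 nt long, the forward one lies at chr4:14193811-14193834 on the plus strand and the reverse one at chr4:14193909-14193932 on the minus strand, and the product of 122 bases lies within the exon.
*YUC8* forward primer: tgtatgcggttgggtttacgagga
*YUC8* reverse primer: ccttgagcgtttcgtgggttgttt
Against the other 9 members, the forward primer had at least 3 mismatches (*YUC3*) and the reverse primer at least 6 (*YUC9*).

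*YUC8* stood at 1.43, 1.77 and 1.79 FPKM in *bbx11-1* and at 0.79, 1.07 and 0.70 FPKM in *pif4-2*, against 1.44, 1.36 and 1.67 FPKM in Col-0. The 3 *pif4-2* libraries were the lowest of the 9, whereas the *bbx11-1* and Col-0 libraries overlapped. The means were 1.66 ± 0.202 FPKM in *bbx11-1*, 0.853 ± 0.193 FPKM in *pif4-2* and 1.49 ± 0.161 FPKM in Col-0, that is, 57.3% of the Col-0 mean in *pif4-2* and 112% in *bbx11-1*. Set against *pif4-2*, the *bbx11-1* mean of *YUC8* was 1.95 times as high. The difference was -0.56 ± 0.17 for *pif4-2* against Col-0 (95% interval -0.94 to -0.19, limma adjusted p = 0.104) and 0.12 ± 0.17 for *bbx11-1* against Col-0 (95% interval -0.26 to 0.50, limma adjusted p = 0.876). For *bbx11-1* against *pif4-2* it was 0.68 ± 0.17 (95% interval 0.30 to 1.06, limma unadjusted p = 0.00215, adjusted p = 0.0701). With limma without the intensity trend the adjusted p was 0.0348 for *pif4-2* against Col-0 and 0.0273 for *bbx11-1* against *pif4-2*, and over the other alternatives it was up to 0.327 and up to 0.265. These fold changes stayed below the threshold of 2. A gene was tested where the mean of any genotype came to 1 FPKM or more, and *YUC8* passed this filter through *bbx11-1* and Col-0 but not *pif4-2*. Its comparisons with *pif4-2* are therefore a description. A library held about 26 to 60 reads of *YUC8* (median 42), so that counting alone gives a coefficient of variation of about 15.4%.

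The upstream sequence of *YUC8* is shown because the G-box CACGTG and the related E-box CACATG are the motifs that PIF proteins bind in Arabidopsis. Both motifs were searched on both strands in the TAIR10.1 sequence of RefSeq, and no matches of the 2 motifs overlapped among the members. Between 250 bases before and 50 bases after the transcription start, CACATG was found in 5 of the 10 members (*YUC2*, *YUC5*, *YUC6*, *YUC8* and *YUC9*) and in 13.0% of 26711 such windows of all genes. CACGTG was found in 0 of the 10 members and in 7.79% of the windows. In the 1000 bases before the start, CACGTG was found in 1 member, *YUC8*, where it occurred at 2 places, and in 14.9% of the windows, and CACATG was found in 4 members and in 37.8% of the windows. Each line below is 30 bases or fewer, read along the gene's strand, with the motif in capitals. *YUC2* holds the motif on the opposite strand and is given beside *YUC8* and *YUC9*, since these 3 genes have it before the start and within the shorter window. Not shown are CACATG 13 bases after the start in *YUC5* and 5 bases after it in *YUC6*. *YUC6* also has CACATG 478 bases before the start, in the longer window.
*YUC8* G-box, 484 bases before the start (chr4:14192073-14192102): cctcatcctctcCACGTGgcttccattcca
*YUC8* G-box, 448 bases before the start (chr4:14192109-14192138): ctttttcttcccCACGTGgcttcctctcgt
*YUC8* E-box, 53 bases before the start (chr4:14192504-14192533): aatattcaacgcCACATGggatctcttctt
*YUC9* E-box, 65 bases before the start (chr1:1104416-1104445): gaacgcgcaaatCACATGcagtctcgttat
*YUC2* E-box, 17 bases before the start (chr4:7724070-7724099, minus strand): ccccaattatgtCATGTGtccatcgccatc
These matches describe the letters only, and no binding was measured in these libraries.

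*YUC5* encodes a YUC monooxygenase of the same branch as *YUC8* and *YUC9*, and it was the member with the largest positive difference from Col-0. It lies on chromosome 5 (17648576 to 17650375, minus strand) and has a single exon. *YUC5* stood at 2.89, 4.01 and 3.70 FPKM in *bbx11-1* and at 3.75, 5.11 and 4.26 FPKM in *pif4-2*, against 2.17, 3.33 and 2.42 FPKM in Col-0. All *pif4-2* libraries were above all Col-0 libraries, and the *bbx11-1* libraries overlapped both. Replicate 2 was the highest of the replicates in each genotype. The mean was 3.53 ± 0.578 FPKM in *bbx11-1* (134% of Col-0) and 4.37 ± 0.687 FPKM in *pif4-2* (166% of Col-0), against 2.64 ± 0.610 FPKM in Col-0. The difference from Col-0 was 0.64 ± 0.17 in *pif4-2* (95% interval 0.27 to 1.02, limma adjusted p = 0.0599) and 0.37 ± 0.17 in *bbx11-1* (95% interval -0.01 to 0.74, limma adjusted p = 0.476). *YUC5* was higher in *bbx11-1* in all 3 pairs of same-numbered libraries, by 0.72, 0.68 and 1.28 FPKM, and its limma adjusted p in *bbx11-1* was 0.188 in the blocked fit. The limma adjusted p of *YUC5* in *pif4-2* ranged from 0.00827, in the blocked fit, to 0.228 over the alternatives. The blocked fit also pairs *pif4-2* by replicate number. Deviations of same-numbered *pif4-2* and Col-0 libraries correlated at only 0.0217 to 0.0717. The adjusted p of *YUC5* was 0.0277 without Col-0 replicate 2 and 0.0417 without *bbx11-1* replicate 1. The fold change stayed below 2 throughout.

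*YUC2*, a YUC gene on chromosome 4 (7721487 to 7724070, minus strand), was at its highest in Col-0. It stood at 0.84, 1.03 and 0.94 FPKM in *bbx11-1* and at 0.58, 0.62 and 0.90 FPKM in *pif4-2*, against 1.50, 1.27 and 1.28 FPKM in Col-0. Neither mutant overlapped with Col-0. The difference was -0.63 ± 0.18 in *pif4-2* (95% interval -1.03 to -0.23, limma adjusted p = 0.0822) and -0.36 ± 0.18 in *bbx11-1* (95% interval -0.76 to 0.03, limma adjusted p = 0.517). *YUC2* and *YUC9* passed the filter on low values only through Col-0, since a gene was tested where the mean of any genotype came to 1 FPKM or more. The comparisons of *YUC2* and *YUC9* with Col-0 are therefore a description. Without the trend the limma adjusted p of *YUC2* in *pif4-2* was 0.0168, with a fold change below 2. A library held about 23 to 55 reads of *YUC2*.

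*YUC9*, on chromosome 1 (1104493 to 1106241, plus strand), stood at 0.72, 0.77 and 0.59 FPKM in *bbx11-1* and at 0.92, 1.06 and 0.82 FPKM in *pif4-2*, against 1.67, 0.78 and 1.28 FPKM in Col-0. The *bbx11-1* libraries were below all others, but only just below Col-0 replicate 2, which lay close to the mutants. The difference from Col-0 was -0.52 ± 0.22 in *bbx11-1* (95% interval -1.0 to -0.04, limma adjusted p = 0.422) and -0.25 ± 0.22 in *pif4-2* (95% interval -0.73 to 0.23). Both depended on single Col-0 libraries. Without Col-0 replicate 1 they were -0.34 in *bbx11-1* and -0.08 in *pif4-2*, and without Col-0 replicate 2 they were -0.72 in *bbx11-1* and -0.46 in *pif4-2*. A library held about 17 to 47 reads of *YUC9* (median 28), which gives a counting coefficient of variation of about 18.9%, the highest of the 8 tested members.

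*YUC6* (chromosome 5, 8934941 to 8938768, minus strand) and *YUC3* (chromosome 1, 1279351 to 1281618, plus strand) encode further YUC monooxygenases. *YUC6* lay between 2.40 and 2.55 FPKM in *bbx11-1* and between 2.09 and 2.52 FPKM in *pif4-2*, against 2.07 to 2.79 FPKM in Col-0, and all 3 genotypes overlapped. Its difference from Col-0 was -0.01 ± 0.14 in *bbx11-1* (95% interval -0.31 to 0.29) and -0.07 ± 0.14 in *pif4-2* (95% interval -0.37 to 0.23). *YUC3* was at 0.89, 0.82 and 1.39 FPKM in *bbx11-1* and at 1.44, 1.49 and 1.42 FPKM in *pif4-2*, against 1.19, 0.99 and 1.42 FPKM in Col-0. The *bbx11-1* libraries of *YUC3* lay below those of *pif4-2* and overlapped those of Col-0, with a difference of -0.37 ± 0.19 from *pif4-2* (95% interval -0.78 to 0.05, limma adjusted p = 0.397).

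*YUC4* (chromosome 5, 3611247 to 3613640, minus strand) and *YUC1* (chromosome 4, 15700829 to 15703000, plus strand) act together in leaf and flower development in Arabidopsis, and both stayed below the filter. *YUC4* was at 0.64, 0.18 and 0.61 FPKM in *bbx11-1* and at 0.75, 0.63 and 0.79 FPKM in *pif4-2*, against 0.83, 0.65 and 0.75 FPKM in Col-0, with *bbx11-1* replicate 2 far below the others and the remaining *bbx11-1* libraries just below the lowest Col-0 library. *YUC1* was at 0.32, 0.04 and 0.26 FPKM in *bbx11-1* and at 0.16, 0.19 and 0.30 FPKM in *pif4-2*, against 0.18, 0.14 and 0.13 FPKM in Col-0. About 1 to 10 reads per library stood behind the *YUC1* values and about 8 to 38 behind those of *YUC4*. In the fit without the filter, over every gene above 0 in at least 1 library, the limma adjusted p of *YUC4* in *bbx11-1* against Col-0 was 0.631 and that of *YUC1* was 0.909. Without *bbx11-1* replicate 2 the difference of *YUC4* in *bbx11-1* was -0.14, against -0.38 with it.

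**Figure D2:**
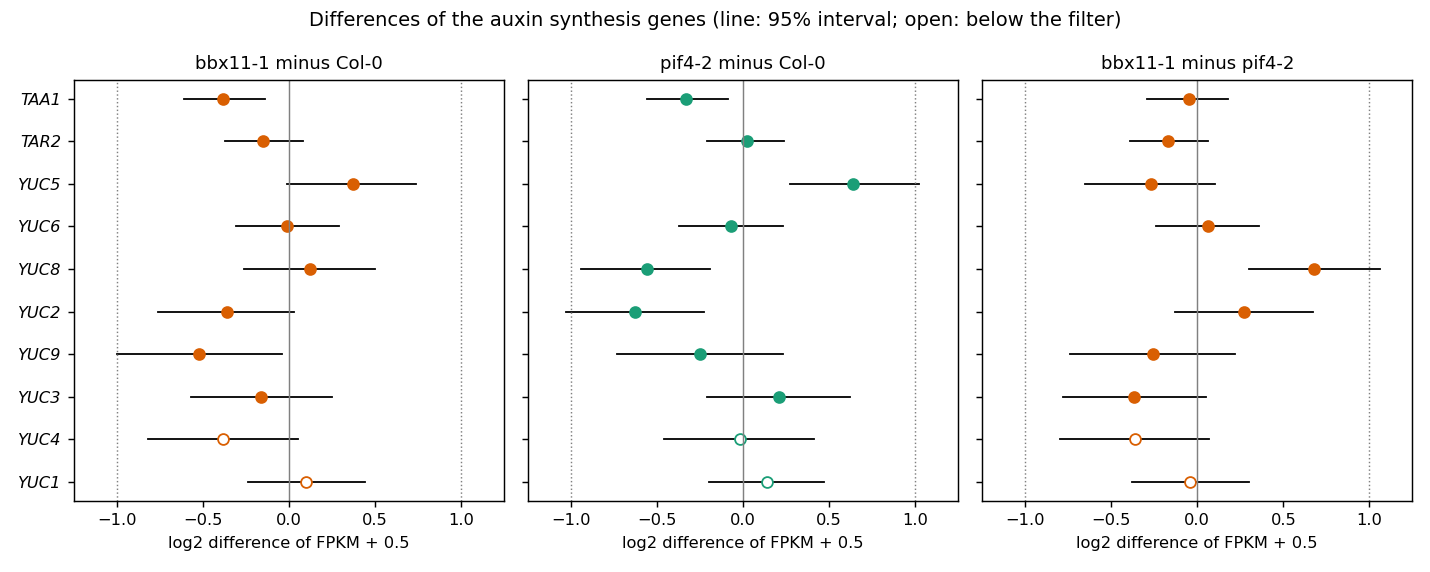
Differences of the 10 genes on the scale of log2(FPKM + 0.5) (x axis, tested genotype minus the other, with 0 as the solid line and 2-fold as the dotted lines) for *bbx11-1* minus Col-0, *pif4-2* minus Col-0 and *bbx11-1* minus *pif4-2*. Points are the fitted differences, lines the 95% intervals from limma and open points genes below the filter; the interval of *YUC8* reaches from 0.30 to 1.06 for *bbx11-1* minus *pif4-2*.

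Of the 8 members tested for *bbx11-1* against Col-0, 0 were called, where 0.146% of all tested genes were called (28 genes). At a limma unadjusted p below 0.05, 2 of the 8 passed, against 10.7% of all genes, and 3 of the 8 did not overlap, against 12.6% of all genes. For *pif4-2* against Col-0, 0 of the 8 were called, where 1.13% of all tested genes were called (217 genes). At a limma unadjusted p below 0.05, 4 of the 8 passed, against 16.6% of all genes, and 4 of the 8 did not overlap, against 22.3% of all genes. For *bbx11-1* against *pif4-2*, 0 of the 8 were called, where 0.636% were called of all tested genes (122 genes), 1 of the 8 had a limma unadjusted p below 0.05, against 14.9%, and 3 of the 8 did not overlap, against 23.3%. By an F test over the 3 genotypes, in which the adjusted p alone makes the call, 0 of the 8 passed, where 4.65% of all genes passed (892 genes). The lowest adjusted p of the F test among the members were 0.0803 for *YUC8*, 0.119 for *TAA1*, 0.128 for *YUC5* and 0.165 for *YUC2*. With the replicate number as a block *YUC5* passed this F test (limma adjusted p = 0.0208). That block also pairs the *pif4-2* libraries, which the replicate numbers were not taken to pair. With limma without the trend *YUC8* (adjusted p = 0.0294) and *YUC2* (adjusted p = 0.0397) passed the F test. These counts, and the medians below, hold *YUC2* and *YUC9*, which passed the filter only through Col-0, where they are high. They also hold *YUC8*, which was below the filter in *pif4-2* (mean 0.853 FPKM) and passed it only through *bbx11-1* and Col-0, where it is high. The counts and medians are therefore a description and support no direction. The median difference of the 8 members was -0.15 for *bbx11-1* against Col-0, -0.16 for *pif4-2* against Col-0 and -0.11 for *bbx11-1* against *pif4-2*, beside 0.00, -0.02 and 0.02 over all tested genes.

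The levels of the 10 genes had the same 4 leaders in every genotype, *TAA1*, *TAR2*, *YUC5* and *YUC6*, in that order of the mean FPKM. *TAA1* and *TAR2* overlapped in both mutants, and *YUC5* and *YUC6* overlapped in Col-0, whereas in the mutants all *YUC5* libraries were above all *YUC6* libraries. *YUC8* came next in *bbx11-1* and in Col-0, but below *YUC3* and *YUC9* in *pif4-2*, where it overlapped with *YUC9*, *YUC4* and *YUC2*. *YUC1* was last in every genotype, and in *bbx11-1* it overlapped with *YUC4*. These levels compare genes per length, and the gene lengths the authors used were not given in the sources used here.

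The sum of the 8 *YUC* members was similar in the 3 genotypes, at 11 ± 0.700 FPKM in *bbx11-1*, 11.6 ± 1.11 FPKM in *pif4-2* and 11.3 ± 0.622 FPKM in Col-0, and all 3 overlapped. The shares of *YUC8*, *YUC5* and *YUC2* in this sum are given here as a description and were not tested. A higher share of any gene lowers the shares of the rest. *YUC8* made up 15.1 ± 1.09% of the sum in *bbx11-1* and 7.34 ± 1.20% in *pif4-2*, against 13.2 ± 1.17% in Col-0. *YUC5* made up 32.1 ± 4.15% in *bbx11-1* and 37.6 ± 2.35% in *pif4-2*, against 23.6 ± 6.89% in Col-0. In *bbx11-1* the *YUC5* shares of single libraries (28.1% to 36.4%) overlapped those of Col-0 (18.4% to 31.4%), as did those of *YUC8*. *YUC2* made up 8.52 ± 0.717% in *bbx11-1* and 6.07 ± 1.52% in *pif4-2*, against 11.9 ± 0.817% in Col-0.

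**Figure D3:**
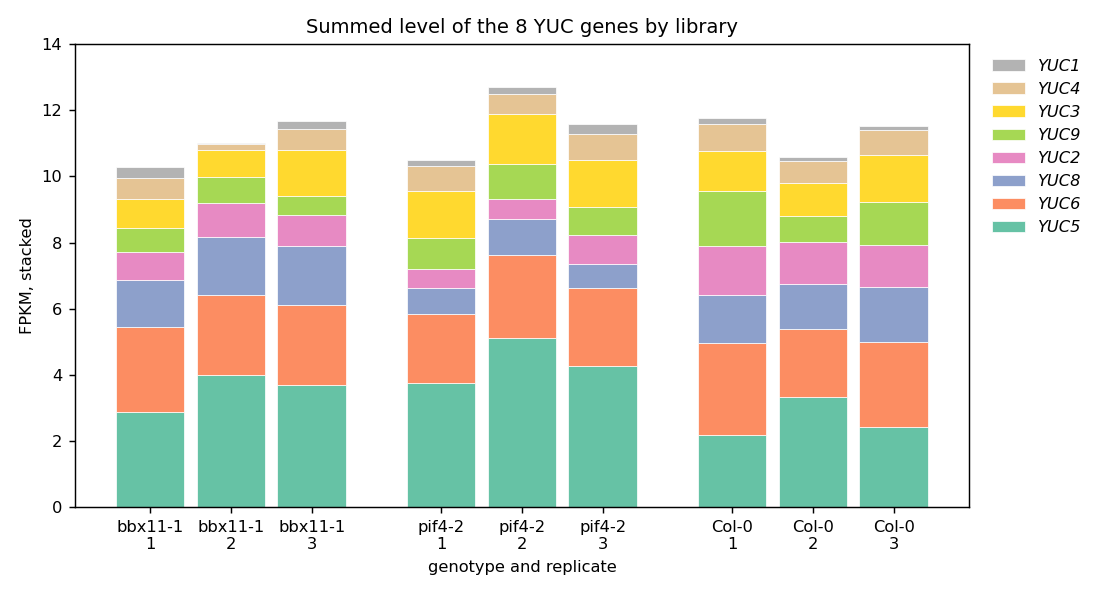
Summed FPKM of the 8 *YUC* genes (y axis, starting at 0) in each of the 9 libraries (x axis, genotype and replicate), with 1 colour per gene. The sums lie between 10.3 and 12.7 FPKM, and the *YUC8* segment makes up 7.34% on average in *pif4-2*, against 13.2% in Col-0.

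The members do not share reads easily. None of the 50-base stretches of their exons was found elsewhere in the genome, and no annotated gene overlapped any of the 10. The most alike pair in coding sequence was *YUC5* and *YUC9*, with 80.5% identity, and *YUC8* and *YUC9* had 72.7%. *YUC5* and *YUC8* were the single-exon genes among the 10.

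The remaining relatives spanned a wide range. *YUC7* was at 0.00 to 0.43 FPKM and *TAR1*, a relative of *TAA1*, at 0.00 to 0.05 FPKM over the 9 libraries, while *YUC10* and *YUC11* were listed at 0 in each of them. AT1G34040, annotated as a PLP-dependent transferase, was at 2.87, 3.95 and 3.98 FPKM in *bbx11-1* and at 4.79, 5.57 and 4.12 FPKM in *pif4-2*, against 4.67, 3.95 and 4.28 FPKM in Col-0, and its mean was above that of each *YUC* member in every genotype. AT1G34060 was at 0.50 to 1.06 FPKM over the 9 libraries. AT1G34040 alone passed the filter among these 6 loci, and it was not called in any comparison.

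Other genes of auxin metabolism were read as a list of 36, of which 30 were tested and 0 were called in each comparison. The list holds tryptophan synthesis, the aldoxime, nitrile and amide routes to IAA, the aminotransferase locus AT1G80360, and IAA oxidation, methylation and conjugate genes, with the remaining relatives named above. Its median difference was -0.13 in *bbx11-1* and -0.13 in *pif4-2*, each against Col-0, beside 0.00 and -0.02 over all tested genes. Between *bbx11-1* and *pif4-2* the median difference was -0.01. Both comparisons with Col-0 use the same Col-0 libraries, so like shifts in the mutants are not independent of each other. For *bbx11-1* against Col-0, 24 of the 30 (80.0%) were below 0, against 48.9% of all tested genes, and 3 (10%) had a limma unadjusted p below 0.05, against 10.7% of all. For *pif4-2* against Col-0, 23 (76.7%) were below 0, against 55.1% of all tested genes, and 8 (26.7%) had a limma unadjusted p below 0.05, against 16.6% of all. Of the 12 genes of tryptophan synthesis, which supply the substrate of TAA1, 10 were below 0 in *bbx11-1*, with a median of -0.12, and 12 in *pif4-2*, with a median of -0.14, and 0 of them passed in either mutant.

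*NIT2*, a nitrilase gene of the nitrile route, was farthest from Col-0 in the list and is named here after its values were seen. It stood at 11.84, 5.0 and 8.89 FPKM in *bbx11-1* and at 4.96, 5.80 and 5.87 FPKM in *pif4-2*, against 11.05, 10.69 and 8.78 FPKM in Col-0. The *pif4-2* libraries were below the Col-0 libraries, with a difference of -0.82 ± 0.23 (95% interval -1.33 to -0.31, limma adjusted p = 0.0787), while *bbx11-1* spread over the range of both. The related *NIT1* differed from Col-0 by -0.33 in *pif4-2* (limma adjusted p = 0.0699).

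**Figure D4:**
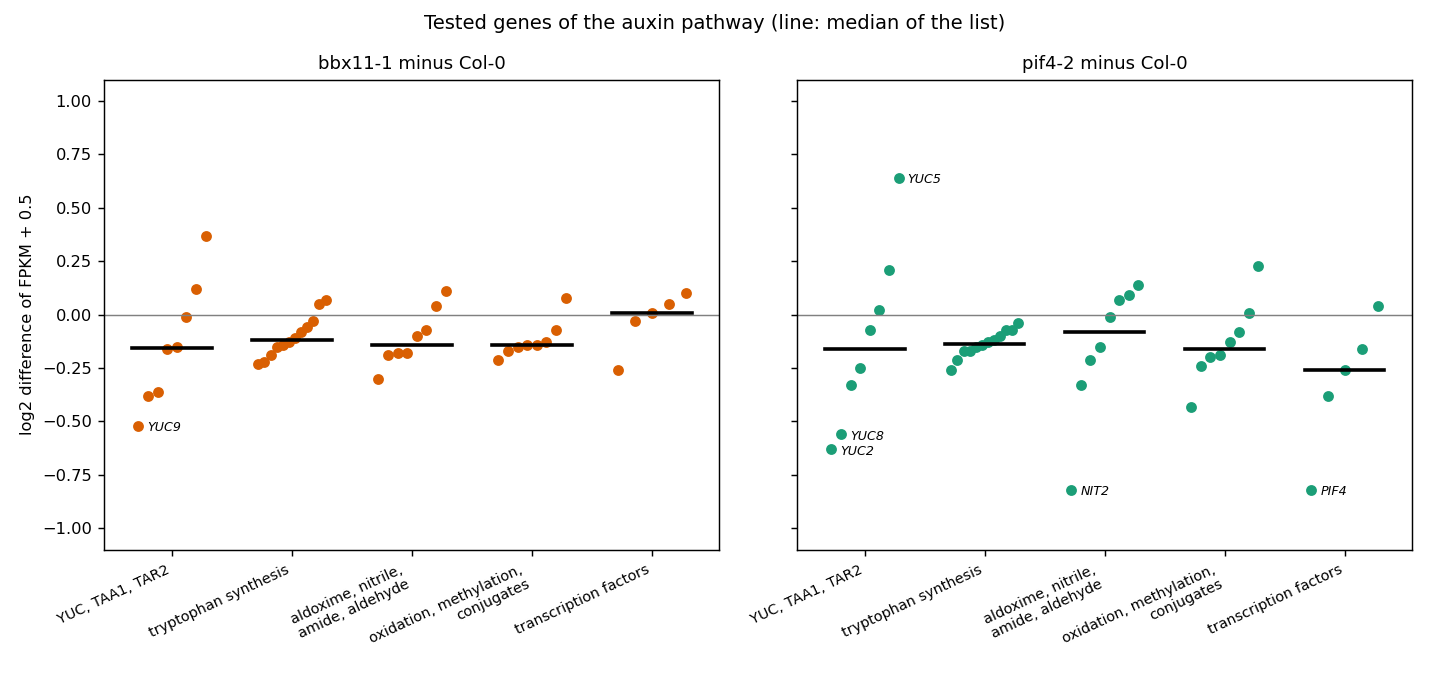
Differences of the tested genes of 5 lists (x axis) on the scale of log2(FPKM + 0.5) (y axis) for *bbx11-1* minus Col-0 and *pif4-2* minus Col-0, with 1 point per gene in order of its difference and a line at the median of the list. Genes at least 0.5 from 0 carry their names. The 12 tryptophan synthesis genes lie between -0.26 and -0.04 in *pif4-2*, and *YUC5* at 0.64 is the highest point there.

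Of the transcription factors known to act on *YUC* or *TAA1* genes in Arabidopsis, *PIF4* itself differed from Col-0 by -0.82 ± 0.10 in *pif4-2* (limma adjusted p = 0.00121), with a fold change below 2, and none of *PIF5*, *PIF7*, *STY1* and *STY2* was called in any comparison. Of the marker lists, that of the shoot apex holds 2 genes, neither of which was called. Their summed level over *STM* and *KNAT1*, homeobox genes of the shoot meristem, lay between 12.4 and 16.2 FPKM in *bbx11-1* and between 7.43 and 7.77 FPKM in *pif4-2*, against 12 to 14.4 FPKM in Col-0. *KNAT1* differed from Col-0 by -0.82 ± 0.12 in *pif4-2* (limma adjusted p = 0.00288), with a fold change below 2, and *STM* by -0.45 (limma adjusted p = 0.0921). In *bbx11-1*, *KNAT1* differed from Col-0 by 0.15 and *STM* by -0.11. The part of shoot apex tissue in the *YUC2*, *YUC8* and *TAA1* values was not tested. The sums of the green tissue markers lay between 35952 and 41531 FPKM in *bbx11-1* and between 37721 and 39586 FPKM in *pif4-2*, against 33162 to 44982 FPKM in Col-0. Those of the root markers lay between 1827 and 2393 FPKM in *bbx11-1* and between 1816 and 1902 FPKM in *pif4-2*, against 1776 to 2373 FPKM in Col-0, but *PYK10* made up 99.0% to 99.4% of that sum. Of the other root markers, the root hair gene *EXPA7* differed from Col-0 by 0.44 in *pif4-2* (limma unadjusted p = 0.0293, adjusted p = 0.227) and *RHD6* by -0.40 in *bbx11-1* (limma unadjusted p = 0.0416, adjusted p = 0.440). The rest of the root list differed less from Col-0. In *pif4-2* the differences were -0.21 for *PYK10*, 0.08 for *EXPA18*, 0.26 for *COBL9* and -0.00 for *RHD6*. In *bbx11-1* they were 0.03 for *PYK10*, -0.00 for *EXPA7*, -0.23 for *EXPA18* and -0.03 for *COBL9*. The stomatal lineage sum lay between 5.98 and 12.1 FPKM in *bbx11-1* and between 10.1 and 11.5 FPKM in *pif4-2*, against 6.38 to 12.1 FPKM in Col-0. The seed storage sum lay between 29.8 and 39.5 FPKM in *bbx11-1* and between 15.9 and 27.4 FPKM in *pif4-2*, against 19.5 to 36.9 FPKM in Col-0. The sums of the mutants did not overlap each other, and 23.3% of all tested genes did not overlap in that comparison. *CRA1* held most of the sum, with means of 33.3 FPKM in *bbx11-1*, 19.1 FPKM in *pif4-2* and 27.2 FPKM in Col-0. *CRU3* overlapped between the genotypes, and *SESA1* reached 6.42 FPKM in 1 *pif4-2* library and at most 0.17 FPKM elsewhere. None of these markers was called against Col-0, and their part in the members' values was not tested.

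For each tested member the 2 genes with the most similar pattern over the 9 libraries were found by Pearson's r on the log2 scale, as a description without a test. For *YUC8* they were *GUS2* (AT5G07830), annotated as a glucuronidase, with r = 0.967, and *BGAL7* (AT5G20710), annotated as a beta-galactosidase, with r = 0.963. For *YUC2* they were *NCED4* (r = 0.968) and AT2G31560 (r = 0.965), for *YUC5* AT1G03230 (r = 0.954) and *ATL6* (r = 0.952), and for *TAA1* *CID8* (r = 0.961) and AT4G24780 (r = 0.960). The 9 points are 3 genotypes of 3 libraries and share those differences, and the highest of 19169 correlations is high by selection.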

How the data were processed

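The authors aligned the reads to TAIR10 by HISAT2 and counted them by HTSeq. The deposited FPKM values have 2 decimals. The step to FPKM, gene lengths, strand setting and handling of multiply mapped reads are not given in the sources used here. No count test was run. limma 3.58.1 (R 4.3.3; lmFit, eBayes with trend) was fitted to log2(FPKM + 0.5) of all 9 libraries (6 residual degrees of freedom) over the 19169 genes in which the mean of any genotype came to 1 FPKM or more. The pseudocount understates changes of weakly expressed genes. An exact permutation test of 3 against 3 libraries cannot give p below 0.1. The fit was run on simulated data in which 200 genes were changed by more than any member differed here. That run does not measure the power for differences as small as those of the members. The study's methods call the replicates independent biological replicates.

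The replicate numbers come from the labels. Deviations of same-numbered libraries correlated at 0.275 to 0.549 between *bbx11-1* and Col-0, so the numbers were taken to pair these, and not the other genotypes.

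Depth was read from genes under 500 nt. Reads per gene are approximate, since with TAIR10.1 exon lengths the genes sum to 116% to 117% of that depth. TAIR10.1 gave positions, lengths and sequences and matched 32835 of 33602 loci. All 10 members are named with their values. Members and lists were chosen with earlier results of these data known. Alternatives were other pseudocounts, no filter, 6 libraries only, the replicate block, median-of-ratios scaling, adjusted p alone, no trend and leaving out each library. Leaving out replicate 1 of Col-0 and *bbx11-1* and the 1000-base window were chosen after seeing the data. Summaries and figures were made in Python 3.11.15 (pandas 2.3.3, numpy 2.4.6, matplotlib 3.10.9).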

Additional observations from a re-analysis of the deposited data

How the results depend on the processing

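No member was called in a pairwise comparison under any alternative run. In the F test, *YUC5* passed with the replicate block (adjusted p = 0.0208, 1 member), and *YUC2* and *YUC8* passed with limma without the trend (adjusted p = 0.0397 and 0.0294, 2 members). The filter let *YUC2* and *YUC8* in only through genotypes in which they are high, so their results are a description. With the replicate block as a term, the adjusted p of *YUC5* in *pif4-2* against Col-0 was 0.00827, still under 2-fold, and the block changed no other call of a member. Same-numbered libraries correlated at 0.0217 to 0.0717 between *pif4-2* and Col-0 and at -0.00819 to 0.0921 between *bbx11-1* and *pif4-2*, too low to take these as paired. The block called 37 genes for *bbx11-1* and 237 for *pif4-2*, each against Col-0, and 145 for *bbx11-1* against *pif4-2*. The genes called for *bbx11-1* against Col-0 numbered 28 and became 11 without the filter, 7 with only the 6 libraries compared, 85 by adjusted p alone and 13 without the trend, and 13 to 42 when 1 library was left out (13 without *bbx11-1* replicate 3, 15 without *pif4-2* replicate 1, Col-0 replicate 1 or Col-0 replicate 3, and 18 without *pif4-2* replicate 2). For *bbx11-1* against *pif4-2* the 122 became 78 without the filter and 445 by adjusted p alone, and 74 to 138 when 1 library was left out (74 without *pif4-2* replicate 1 and 75 without replicate 3). For *pif4-2* against Col-0 the 217 became 927 by adjusted p alone, and 184 to 235 when 1 library was left out. The F test's 892 became 502 without the filter, and 367 to 977 when 1 library was left out (367, 404 and 391 without *pif4-2* replicate 1, 2 and 3). The cause of these moves was not tested.

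Differences near 0 changed sign when 1 library was left out. *TAR2* then lay between -0.04 and 0.09 in *pif4-2* against Col-0. Below the filter, *YUC1* lay between -0.02 and 0.28 in *bbx11-1* against Col-0 and between -0.16 and 0.14 in *bbx11-1* against *pif4-2*. *YUC4*, also below the filter, lay between -0.08 and 0.03 in *pif4-2* against Col-0. *YUC6* lay between -0.11 and 0.07 in *bbx11-1* against Col-0, between -0.00 and 0.11 in *bbx11-1* against *pif4-2*, and between -0.17 and 0.01 in *pif4-2* against Col-0. Without replicate 1 of *bbx11-1* and Col-0, *YUC6* was at 0.05 in *bbx11-1* and at 0.01 in *pif4-2*, each against Col-0. With a pseudocount of 0.1, *YUC4* stood at -0.67 for *bbx11-1* against Col-0 and at -0.64 for *bbx11-1* against *pif4-2*, and *YUC8* at -0.75 for *pif4-2* against Col-0. Of the member differences under the alternatives, 498 kept direction and call or, for *YUC1* and *YUC4*, moved by less than the spread between replicates. Another 10 reversed and 2 moved. The 498 do not measure robustness. No filter, 6 libraries only, the block, no trend and leaving out a genotype not compared cannot change a difference. Keeping the call was nearly fixed as well, since no member was called. Depth limits *YUC1*, *YUC4* and *YUC9* most.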
